A study of Mus musculus with 20 samples.

Results

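Steroid hormones are made from cholesterol by a short chain of proteins shared by the gonads and the adrenal cortex, and 10 genes of that chain and its adrenal control were followed here in mouse gonads at the start of testis formation. The genes were Scarb1, Star, Cyp11a1, Fdx1, Hsd3b1, Hsd3b6, Cyp17a1, Cyp21a1, Cyp11b1 and Mc2r, chosen by name. Of these, 9 had a probe on the array under their own symbol, 13 probes in all out of 41174 gene probes carrying 27962 names. Cyp11b1, which codes for the adrenal 11-beta-hydroxylase, was matched by no probe, either by symbol or by accession, and is not analysed here.

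Each of the 20 arrays held RNA from 1 pair of XY gonads at embryonic day 11.5, cut away from the mesonephros and staged at 17 to 21 tail somites. The 4 groups of 5 arrays were (B6x129S1)F1 hybrids (C2, C3, C4, E1, F2), (129S1xB6)F1 hybrids (L1, L2, L4, M3, M6), C57BL/6J (H1, H2, H3, H4, K2) and 129S1/SvImJ (A3, A4, A6, D4, G3). All groups were untreated and carried no stated allele beyond their strain background, and the labels do not say which parent of either hybrid was the mother. From 200 to 450 ng of total RNA per pair was amplified and labelled with Cy5. Every array also carried a common pool labelled with Cy3, in which 4 XY and 3 XX gonad pairs were mixed with 4 XY and 2 XX whole embryos of that stage. The pool came from the cross Sox9-ECFP(C57BL/6J) x CD-1. Dyes were never swapped. The letters of the array names may mark litters, which the labels do not state, and 4 of the 5 C57BL/6J arrays share the letter H.

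In steroidogenic cells, StAR (Star) carries cholesterol to the inner mitochondrial membrane, where Cyp11a1 cuts its side chain with electrons handed on by ferredoxin (Fdx1) to give pregnenolone. Enzymes of the 3-beta-hydroxysteroid dehydrogenase family, Hsd3b1 among them, turn pregnenolone into progesterone, which Cyp17a1 takes towards androgens and Cyp21a1 and Cyp11b1 take towards corticosteroids. In the mouse embryo the gonad and the adrenal cortex come from one primordium, and the fetal Leydig cells that make testicular androgen are recognised only after the stage sampled here.

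The probe letters are shown for the genes on which the results turn, Hsd3b1 on chromosome 3 and Star on chromosome 8, because the strain comparison rests on 1 probe of Hsd3b1 and on 1 of 2 Star probes that read different stretches. The letters are bases 16 to 45 of each 60-base probe, 5′ to 3′, from the deposited probe annotation, with no base marked by capitals. Chromosomes are those of the RefSeq gene table of assembly GRCm38.p6.
Hsd3b1: acttggtatctttctcaagtcaccagaagc
Star probe 1: agagctataacattcctgttccaggatttg
Star probe 2: ttcactgatatttattgctcacctcggtgc

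For Fdx1 on chromosome 9 the probes named 2 and 3 overlap, and their letters are given whole since the pair is not independent. Capitals mark the 40 bases that both hold.
Fdx1 probe 2: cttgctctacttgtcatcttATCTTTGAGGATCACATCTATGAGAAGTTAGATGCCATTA
Fdx1 probe 3: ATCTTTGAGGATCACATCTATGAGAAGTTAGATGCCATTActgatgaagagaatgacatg

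Values are log2 ratios of gonad to pool: log2 of the Cy5 processed signal over the Cy3 processed signal, both already background-subtracted and dye-normalised by the scanner software. A value of 1 is a doubling over the pool. Differences between groups were fitted with limma over 35040 probes, those whose Cy5 signal the scanner software marked as well above background on 4 or more of the 5 arrays in some group, and p-values were adjusted by Benjamini-Hochberg over all of them. Probes with an adjusted p under 0.05 are given as called. The median background-subtracted Cy5 signal of an array ran from 87.3 to 207, and from 78.4% to 88.3% of gene probes were well above background in Cy5. All 13 probes of the gene set were well above background in both channels on all 20 arrays.

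Gonad markers fitted the labelled tissue. Wt1 averaged 4.31, Gata4 2.57 and Nr5a1 2.13 above the pool on the log2 scale, and the germ cell gene Dppa3 averaged 6.19. Amh and Sox9, genes of the Sertoli cell, averaged 0.52 and 0.44. Lhcgr, the luteinising hormone receptor of Leydig cells, was above background on 0 arrays. In whole gonads, fewer cells of a type and less RNA per cell cannot be told apart.

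Side-chain cleavage stood out over the pool. Cyp11a1 averaged 2.26 on probe 1 and 2.70 on probe 2 over the 20 arrays, or 4.79-fold and 6.52-fold above the pool, and was above it on every array. Hsd3b1 averaged 1.69 and Star 1.61 and 1.18, while Hsd3b6 averaged 0.70 and Mc2r 0.53. Cyp17a1 at 0.18, Scarb1 at 0.12 and Cyp21a1 at 0.11 lay near the median of all tested probes, 0.09. Of the 13 probes, 11 averaged above 0, against 58.5% of all tested probes. These ratios are a description: the pool itself held gonads, and without background subtraction Hsd3b1 averaged 0.70, Star 0.32 and 0.21, and Cyp11a1 0.62 and 0.76.

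**Figure D1:**
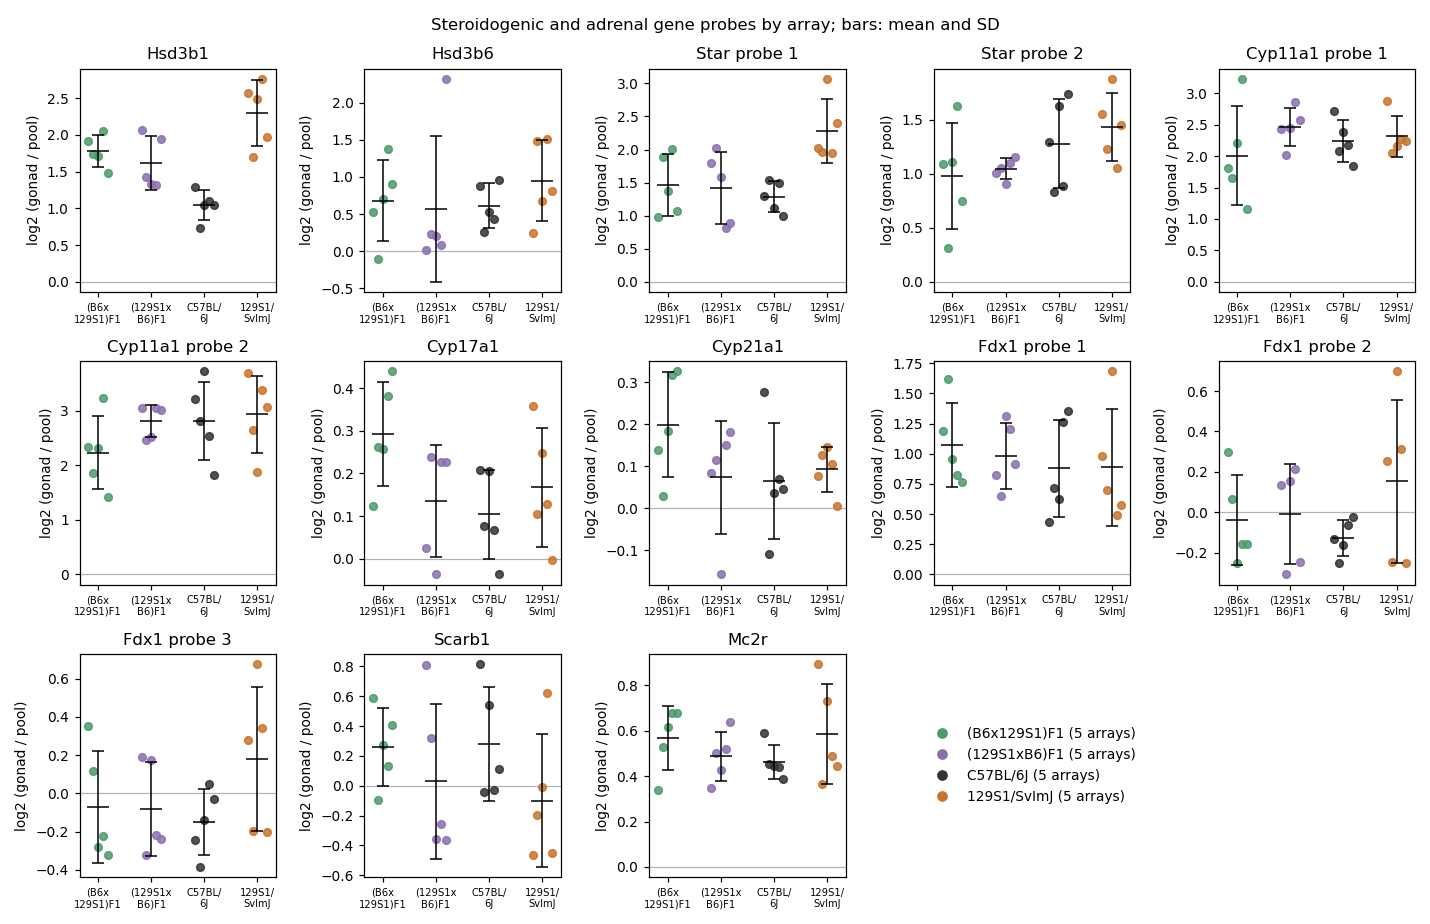
Log2 ratio of gonad to pool (vertical axis) for each of the 13 probes, 1 point per array, in the order (B6x129S1)F1, (129S1xB6)F1, C57BL/6J and 129S1/SvImJ, with group means and SD (n = 5). The C57BL/6J points of Hsd3b1 and of Star probe 1 lie wholly below those of 129S1/SvImJ.

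The main question of the design was how the gonads of the parent strains differ, since C57BL/6J is known as a strain background on which XY sex reversal occurs readily and 129S1/SvImJ as one that resists it. Hsd3b1 and 1 of 2 Star probes were lower in C57BL/6J gonads than in 129S1/SvImJ gonads, 2 called probes of 13. Among all tested probes 5.47% were called in this comparison by limma, 3.11% higher and 2.35% lower. Whether the strains differ in sequence under the Hsd3b1 and Star probes was not tested. Differences (C57BL/6J minus 129S1/SvImJ) were below 0 for 12 of the 13 probes, with a median of -0.12, and for 49.4% of all tested probes. The 13 probes come from 9 genes on the same arrays and are not independent. With the probe brightest over both channels for each gene, 8 of 9 were below 0, with a median of -0.08.

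Hsd3b1 makes progesterone from pregnenolone. Its log2 ratios were 1.92, 1.75, 1.71, 2.06 and 1.49 in (B6x129S1)F1 gonads and 2.07, 1.42, 1.33, 1.31 and 1.95 in (129S1xB6)F1 gonads. In C57BL/6J gonads they were 1.29, 0.73, 1.05, 1.11 and 1.05, and in 129S1/SvImJ gonads 2.57, 1.69, 2.48, 2.77 and 1.98. Every C57BL/6J array was below every 129S1/SvImJ array and every array of either hybrid, while both hybrids overlapped 129S1/SvImJ at its low end. Group means were 1.78 ± 0.22 in (B6x129S1)F1, 1.62 ± 0.36 in (129S1xB6)F1, 1.05 ± 0.20 in C57BL/6J and 2.30 ± 0.45 in 129S1/SvImJ (SD, n = 5 each).

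The difference in Hsd3b1 between C57BL/6J and 129S1/SvImJ was -1.25 ± 0.195 (SE, 95% interval -1.66 to -0.84), 2.38-fold lower in C57BL/6J, with a limma adjusted p of 0.000271. Of all tested probes 2.26% were, like Hsd3b1, lower in C57BL/6J with no overlap of the groups. Within the 4 slides that held both strains the difference was -1.49, -0.97, -1.43 and -0.87, the same direction on each. The median Cy5 signal of an array was 113 to 187 in C57BL/6J and 172 to 207 in 129S1/SvImJ, and its part in the difference was not tested. Hsd3b1 was called in this comparison in all 21 other settings and left-out arrays tried, with adjusted p from 6.12e-05 to 0.0105. Hsd3b1 was also called by limma's F test across the 4 genotypes (adjusted p = 0.00304), the 1 called probe of 13, with 3.56% of all probes called. That call was lost where background was corrected by normexp, with adjusted p = 0.0685 at an offset of 50 and 0.0757 at an offset of 16.

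The closest relative on the list, Hsd3b6, an isoform of the adult mouse testis, did not follow it beyond its spread. It averaged 0.68 ± 0.54 in (B6x129S1)F1, 0.57 ± 0.99 in (129S1xB6)F1, where array M6 alone was at 2.33, 0.61 ± 0.30 in C57BL/6J and 0.95 ± 0.55 in 129S1/SvImJ gonads. The strain difference was -0.34 ± 0.375 (SE, limma adjusted p = 0.797). Probes of Hsd3b2, Hsd3b4, Hsd3b5 and Hsd3b7 differed between the strains by -0.31 to 0.10 and none was called. Members of this family are near-identical in places, so signal shared between them on a probe cannot be told apart here.

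Star delivers the substrate of the whole chain. On probe 1 its log2 ratios were 0.98, 1.89, 1.37, 2.00 and 1.07 in (B6x129S1)F1 gonads and 1.80, 2.02, 1.59, 0.82 and 0.89 in (129S1xB6)F1 gonads. They were 1.30, 1.54, 1.12, 1.50 and 0.99 in C57BL/6J gonads, against 2.02, 1.96, 3.07, 1.95 and 2.40 in 129S1/SvImJ gonads. The strains did not overlap, with C57BL/6J below 129S1/SvImJ throughout, whereas the hybrids spanned the C57BL/6J range and reached into that of 129S1/SvImJ. The strain difference was -0.99 ± 0.263 (SE, 95% interval -1.54 to -0.44), 1.99-fold lower in C57BL/6J, with a limma adjusted p of 0.0299.

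Star probe 2 gave 1.09, 0.31, 1.11, 1.63 and 0.75 in (B6x129S1)F1 gonads and 1.01, 1.05, 0.91, 1.10 and 1.16 in (129S1xB6)F1 gonads. It gave 1.30, 0.84, 1.63, 0.89 and 1.74 in C57BL/6J gonads, against 1.56, 1.23, 1.88, 1.05 and 1.45 in 129S1/SvImJ gonads. The strains overlapped over most of their range on this probe, and the difference was -0.16 ± 0.22 (SE, limma adjusted p = 0.852). Taken per array, probe 1 minus probe 2 averaged 0.01 ± 0.65 in C57BL/6J and 0.84 ± 0.27 in 129S1/SvImJ (SD, n = 5 each). Whether the probes differ in their strain difference was not tested.

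The Star call rested on choices of processing and on single arrays. Star probe 1 was called in 12 of 21 alternatives, with differences from -1.11 to -0.32 and adjusted p from 0.0151 to 0.33. Under normexp with an offset of 50 the difference was -0.58 (adjusted p = 0.287), and with the array letter as a random block its adjusted p was 0.0761. Leaving out 129S1/SvImJ array A6, the highest of its group, gave -0.79 (adjusted p = 0.0876). The call was also lost without 129S1/SvImJ array G3 (adjusted p = 0.0587) or C57BL/6J array H1 (0.0557), H3 (0.0718) or K2 (0.0773). Within slides the difference was -0.77, -0.42, -2.08 and -0.90.

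**Figure D2:**
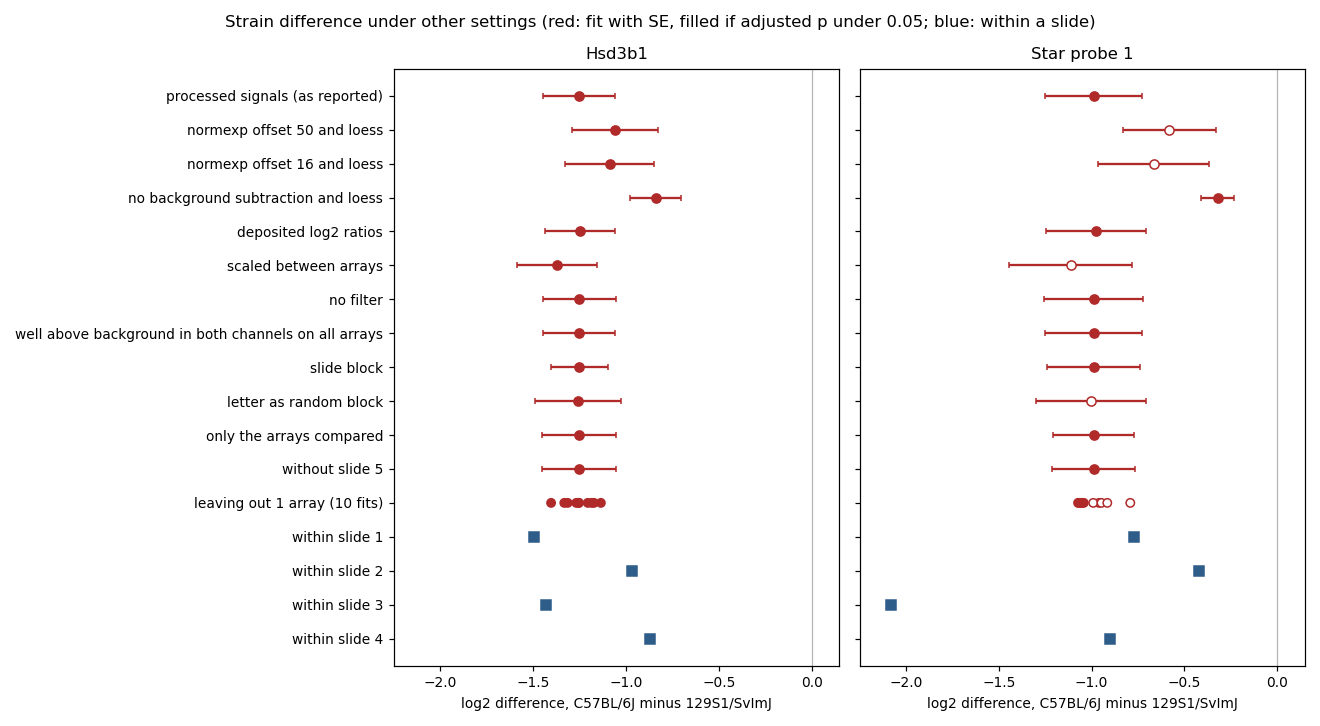
Differences C57BL/6J minus 129S1/SvImJ in log2 ratio (horizontal axis) for Hsd3b1 and Star probe 1. Red points are the fits under each processing setting, with SE, and the fits without each array, drawn without SE. Red points are filled where the limma adjusted p was under 0.05. Blue squares are the differences within each slide. Hsd3b1 stays between -1.40 and -0.84 and filled throughout, while Star probe 1 runs from -1.11 to -0.32 and is filled in 12 of 21 alternatives.

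Scarb1, the lipoprotein receptor that brings cholesterol into the cell, was the 1 probe above 0 in the strain comparison. It averaged 0.28 ± 0.38 in C57BL/6J and -0.10 ± 0.44 in 129S1/SvImJ gonads (SD, n = 5 each), a difference of 0.38 ± 0.244 (SE, limma adjusted p = 0.537) that lay within the spread of the arrays.

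Cyp11a1 commits cholesterol to steroid synthesis. On probe 1 it averaged 2.24 ± 0.33 in C57BL/6J and 2.32 ± 0.33 in 129S1/SvImJ gonads. On probe 2 it averaged 2.82 ± 0.72 in C57BL/6J and 2.94 ± 0.71 in 129S1/SvImJ (SD, n = 5 each). Differences were -0.08 on probe 1 and -0.12 on probe 2, smaller than the spread on either probe, and their sign varied over the alternatives. Its electron donor Fdx1 averaged 0.95 over all arrays on probe 1 but -0.01 and -0.03 on the overlapping probes 2 and 3. Its strain differences were -0.01 on probe 1, -0.28 on probe 2 (limma adjusted p = 0.469) and -0.33 on probe 3 (limma adjusted p = 0.396). No C57BL/6J array was above 0 on probe 2, while 3 of 5 129S1/SvImJ arrays were.

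The later enzymes and the adrenal receptor lay close together in all groups. Cyp17a1, the first enzyme towards androgens, averaged 0.10 ± 0.10 in C57BL/6J and 0.17 ± 0.14 in 129S1/SvImJ gonads. Cyp21a1, which acts in the adrenal cortex, averaged 0.06 ± 0.14 in C57BL/6J and 0.09 ± 0.05 in 129S1/SvImJ. Mc2r, the corticotropin receptor, averaged 0.46 ± 0.08 in C57BL/6J and 0.59 ± 0.22 in 129S1/SvImJ, and none of the 3 was called.

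**Figure D3:**
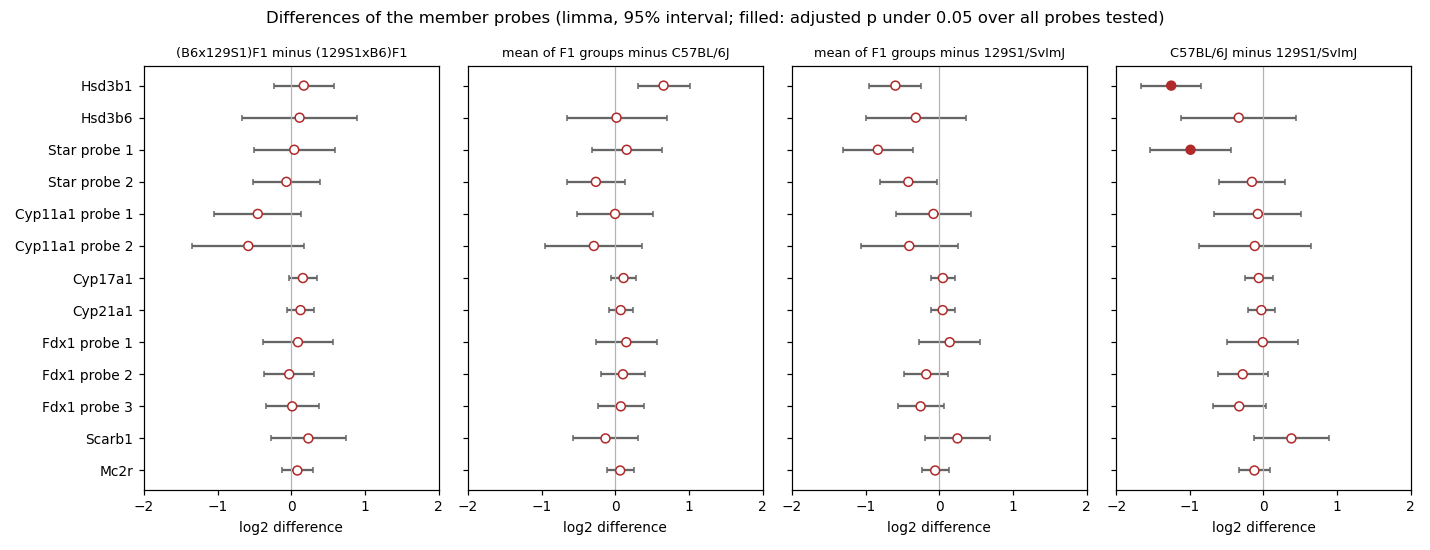
Fitted differences in log2 ratio with 95% intervals for the 13 probes in 4 comparisons, with probes down the page, the difference on the horizontal axis and filled points where the adjusted p was under 0.05. In the strain comparison the intervals of Hsd3b1 (-1.66 to -0.84) and Star probe 1 (-1.54 to -0.44) lie below 0.

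The hybrids were set against their parents to ask how a strain difference is inherited. Averaged over both hybrids, Hsd3b1 was 0.65 ± 0.169 (SE, limma adjusted p = 0.0519) above C57BL/6J, 1.57-fold. Arrays of the hybrids and of C57BL/6J did not overlap, but only narrowly, with the highest C57BL/6J array at 1.29 and the lowest hybrid array at 1.31. The share of all probes separated in this way was not counted. Without background subtraction the excess was 0.28 (limma adjusted p = 0.401). On the processed signals 0 of 13 probes were called where 1.91% of all probes were, and 1 was under 0.05 before adjustment. Within the 3 slides that held hybrids and C57BL/6J, the excess was 0.68, 0.53 and 0.89. Hsd3b1 was called here in 7 of 26 alternatives, among them the fit with slide as a block (0.78, adjusted p = 0.0235) and the fits without L4 (adjusted p = 0.0438), M3 (0.0446) or F2 (0.0465). Against 129S1/SvImJ it was -0.60 ± 0.169 (SE, limma adjusted p = 0.0948), with 0 of 13 probes called, 3 under 0.05 before adjustment, and 1.54% of all probes called. Within slides that difference was -0.29, -0.90 and 0.02, so 1 slide showed none. Without 129S1/SvImJ array A4, the lowest of its group, it was -0.75 (limma adjusted p = 0.0231).

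Both hybrids lay between the parents for Hsd3b1. The mean of the hybrids differed from the mid-parent value, the mean of the strain means, by 0.03 ± 0.138 (SE, 95% interval -0.26 to 0.32). Taken alone, neither hybrid differed from a parent at an adjusted p under 0.05. (B6x129S1)F1 minus C57BL/6J was 0.74 (0.0657) and (129S1xB6)F1 minus C57BL/6J was 0.57 (0.278), with limma adjusted p in parentheses. (B6x129S1)F1 minus 129S1/SvImJ was -0.51 (0.293) and (129S1xB6)F1 minus 129S1/SvImJ was -0.68 (0.147). Of all tested probes 1.56%, 1.05%, 1.06% and 0.87% were called in these 4 comparisons.

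Star in the hybrids lay nearer to C57BL/6J on probe 1, at 1.46 ± 0.47 in (B6x129S1)F1 and 1.42 ± 0.54 in (129S1xB6)F1, against 1.29 ± 0.24 in C57BL/6J and 2.28 ± 0.48 in 129S1/SvImJ gonads. The mean of the hybrids minus 129S1/SvImJ was -0.84 ± 0.228 (SE, limma adjusted p = 0.08) on probe 1 and -0.42 ± 0.187 (SE, limma adjusted p = 0.359) on probe 2. Without background subtraction the value on probe 1 was -0.29 (limma adjusted p = 0.077). Probe 2 was called in 1 of 26 alternatives, where its difference was smaller, at -0.16 (limma adjusted p = 0.0181). On probe 2 both hybrids averaged below both parents, at 0.98 ± 0.49 in (B6x129S1)F1 and 1.05 ± 0.10 in (129S1xB6)F1, against 1.28 ± 0.41 in C57BL/6J and 1.43 ± 0.32 in 129S1/SvImJ, and the mean of the hybrids minus C57BL/6J was -0.27 (limma adjusted p = 0.666). Against the mid-parent value Star differed by -0.34 on both probes, with 0 of 13 probes called by limma, 1 under 0.05 before adjustment (Star probe 2, limma adjusted p = 0.541) and 0.24% of all probes called. No probe of the other genes was called in any comparison with the hybrids. Scarb1 averaged 0.26 ± 0.26 in (B6x129S1)F1 and 0.03 ± 0.52 in (129S1xB6)F1, and Fdx1 probe 1 averaged 1.07 ± 0.35 in (B6x129S1)F1 and 0.98 ± 0.28 in (129S1xB6)F1. Cyp17a1 averaged 0.29 ± 0.12 in (B6x129S1)F1 and 0.14 ± 0.13 in (129S1xB6)F1, and Mc2r averaged 0.57 ± 0.14 in (B6x129S1)F1 and 0.49 ± 0.11 in (129S1xB6)F1 (SD, n = 5 each). These comparisons share arrays with one another and with the strain comparison.

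The reciprocal crosses, which have the same parents the other way round, gave 0 called probes of 13 by limma and 0 under 0.05 before adjustment, where 0.00571% of all probes were called. For Hsd3b1 (B6x129S1)F1 minus (129S1xB6)F1 was 0.17 ± 0.195 (SE, 95% interval -0.24 to 0.58). The widest gaps were at Cyp11a1, -0.46 ± 0.282 on probe 1 and -0.59 ± 0.364 on probe 2 (SE), each with an interval that spans 0. Cyp11a1 probe 1 ran from 1.16 to 3.23 in (B6x129S1)F1 and from 2.01 to 2.86 in (129S1xB6)F1.

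From embryo to embryo within a genotype the genes mostly varied apart. With group means removed and the probe with the highest mean log2 signal over both channels standing for each gene, 26 of 36 pairs of genes had a Pearson correlation above 0 over the 20 arrays, with a median of 0.09, and 1 pair passed adjustment over the 36. That pair was Cyp17a1 and Mc2r, with r = 0.83 and Spearman rho = 0.82 (permutation within groups, adjusted p = 0.00144 and 0.00252). Without the 2 arrays farthest from the median of Cyp17a1, r was 0.78, and with slide means removed as well it was 0.73. Both genes varied little within groups. The SD within groups was larger than that of Cyp17a1 (0.12) for 91.8% of tested probes, and larger than that of Mc2r (0.15) for 85.4%. Each of the pair had an r with the median Cy5 signal of the array, -0.33 for Cyp17a1 and -0.39 for Mc2r, and the part of array signal was not tested. Hsd3b1 with Cyp11a1 had r = 0.40 (permutation, adjusted p = 0.408), Hsd3b1 with Star 0.09 and Star with Cyp11a1 0.06, none passing adjustment. These moved with the processing: under normexp with an offset of 50 they were 0.63, 0.49 and 0.43, and with slide means removed 0.18, 0.25 and 0.65.

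Probes of the same gene were compared in the same way. The Cyp11a1 probes had r = 0.77 (permutation, adjusted p = 0.0003), and Fdx1 probes 2 and 3, which share bases, r = 0.90. The 2 Star probes had r = 0.04, and 0.58 under normexp with an offset of 50. So on the processed signals the Star probes ranked embryos of one genotype differently.

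**Figure D4:**
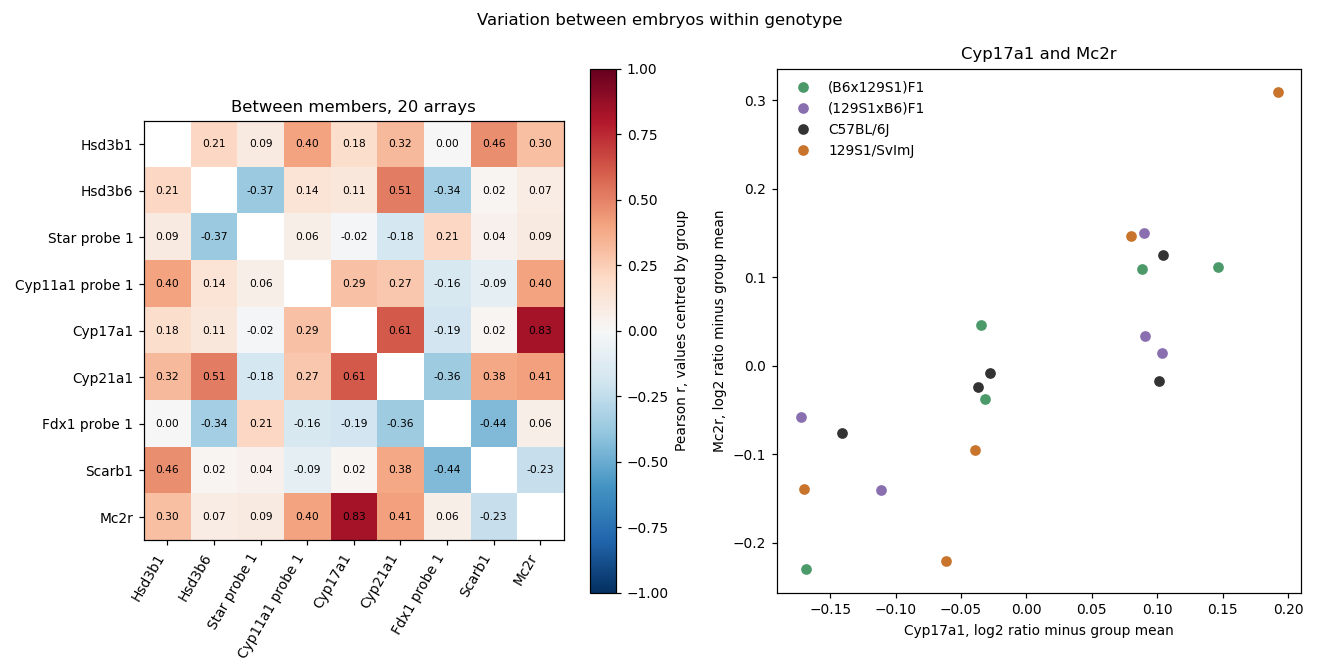
Pearson correlation between genes over 20 arrays after removal of group means, 1 cell per pair (left), and the log2 ratios of Mc2r against Cyp17a1 minus their group means, 1 point per array (right). Cyp17a1 with Mc2r at 0.83 is the 1 pair of 36 with an adjusted p under 0.05.

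Other genes of steroid synthesis were read from a list of 25, of which 21 were tested, taking for each gene the probe brightest over both channels. In the strain comparison limma called 1 higher and 1 lower, against 3.11% and 2.35% of all probes. The list's median difference was 0.05, against 0.00 over all probes. Cyb5b, a cytochrome b5 of the outer mitochondrial membrane, was 0.53 ± 0.104 (SE) higher in C57BL/6J (adjusted p = 0.0028), and the hybrids were -0.55 from C57BL/6J (adjusted p = 0.0015). Hsd17b7, which acts both on oestrone and in cholesterol synthesis, was -1.28 ± 0.311 (SE), lower in C57BL/6J (adjusted p = 0.0162), with -0.60 on its other probe.

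Upstream of Star, genes of cholesterol synthesis and supply were higher in C57BL/6J more often than lower: limma called 6 of 27 higher and 0 lower, with 11 under 0.05 before adjustment. Hsd17b7, which also acts in cholesterol synthesis and was called lower, was counted on the steroid list and not among these 27. Over all 35040 probes 3.11% were called higher and 2.35% lower, and 5303 were under 0.05 before adjustment. The list was chosen with earlier results of these data known, so its counts are a description. The list's median difference was 0.24, with 19 of 27 above 0 and 8 below, where 49.4% of all tested probes were below 0. Among those called were Idi1 (0.88) and Hmgcs1 (0.88), early enzymes of the mevalonate route, Sc5d (0.59), which acts late in cholesterol synthesis, Soat1 (1.10), which esterifies cholesterol, and Apoe (1.13), an apolipoprotein, with adjusted p from 0.00079 to 0.00736. Over the 21 alternatives 5 to 7 were called higher and 0 to 1 lower. The summed Cy5 signal of the list, in multiples of the array median, was 436 to 532 in C57BL/6J and 297 to 366 in 129S1/SvImJ gonads. In the mean of the hybrids minus C57BL/6J, which shares the C57BL/6J arrays, 25 of 27 were below 0 with a median of -0.12. Limma called 1 of them, Idi1 (-0.67, adjusted p = 0.0073). In that comparison 48.6% of all tested probes were below 0 and 1.91% were called. Probes of one gene disagreed for Sc5d, at -0.47 on its other probe, and for Soat1, whose other probes ran from -1.12 to 0.48.

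Of 16 regulators of steroidogenic genes 15 were tested, with 1 called higher and 2 lower in C57BL/6J by limma, against 3.11% and 2.35% of all probes. Nr5a2, a nuclear receptor that binds the same sites as Nr5a1, had a difference of -1.28 ± 0.147 (SE, adjusted p = 7.34e-06), and the general factor Sp1 was -1.16 (adjusted p = 0.00444). Cited2, a cofactor in adrenal and gonadal development, was 0.62 higher (adjusted p = 0.0449). Over the 21 alternatives 0 to 1 were called higher and 1 to 2 lower. In the hybrids Nr5a2 was 1.10 above C57BL/6J (limma adjusted p = 2.9e-05) and Sp1 0.92 above it (adjusted p = 0.0204).

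Markers of other cells that the dissection could hold were read beside Hsd3b1 and Star. Over all 35040 probes limma called 5.47% in the strain comparison, 5303 were under 0.05 before adjustment and 49.4% were below 0. Of 9 tested fetal Leydig markers limma called 0 in the strain comparison, with 1 under 0.05 before adjustment. In the mean of hybrids minus 129S1/SvImJ it called 1 of them lower, Vsnl1 (-0.31, adjusted p = 0.0229), which the F test also called (adjusted p = 0.0386). Of all probes 1.54% were called in that comparison and 3.56% by the F test. The summed Cy5 signal of the fetal Leydig markers was 12.6 to 16.4 array medians in C57BL/6J and 13.5 to 24.9 in 129S1/SvImJ gonads. Adrenal cortex markers summed to 4.09 to 6.01 in C57BL/6J and 4.20 to 7.99 in 129S1/SvImJ, with 0 of 6 called and 1 under 0.05 before adjustment. Their defining members were not all at background: Cyp11b2 was above it on 19 arrays. Mesonephros markers summed to 15.4 to 20.5 in C57BL/6J and 11.9 to 16.2 in 129S1/SvImJ, and limma called 1 of 9 higher, Emx2 (1.04), and 1 lower, Lhx1 (-0.61). Of 6 endothelial markers 0 were called, but 5 were below 0 in C57BL/6J minus 129S1/SvImJ and 3 were under 0.05 before adjustment (median -0.20), with summed signals of 19.9 to 32.8 in C57BL/6J and 21.1 to 24.7 in 129S1/SvImJ. Of 7 Sertoli markers 0 were called, 5 were below 0 and 2 under 0.05 before adjustment (median -0.22), with summed signals of 25.2 to 76.3 in C57BL/6J and 8.92 to 52.4 in 129S1/SvImJ. Limma also called 0 of 10 adrenal medulla and neural crest markers, 0 of 7 interstitial progenitor, 0 of 8 germ cell, 0 of 5 macrophage and 0 of 7 erythroid markers in this comparison. Before adjustment 0 of the adrenal medulla, 1 of the interstitial, 2 of the germ cell, 2 of the macrophage and 0 of the erythroid markers were under 0.05. In the same order 3, 3, 6, 1 and 1 were below 0. Over the 21 alternatives 0 to 1 germ cell and 0 to 1 endothelial markers were called lower, and 0 to 1 macrophage markers higher. For adrenal cortex markers it was 0 to 1 in either direction, and the other marker lists kept their counts. The part of these cells in the Hsd3b1 and Star differences was not tested.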

How the data were processed

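Per the file headers, the arrays were scanned and read with Agilent Feature Extraction 9.1.3.1, and the deposited intensity values include processed signals that the software had background-subtracted, spatially detrended, replaced by surrogates where weak, and LOWESS dye-normalised. The authors' deposited log2 ratio table was used as an alternative: against the processed log2 ratios its columns had r from 0.935 to 0.960 and ran the same way, with column medians from 0.00 to 0.04, and how it was normalised is not given in the sources used here. The labels do not give separate litters for replicates, so p-values measure the spread between embryos sampled.

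Spots of 1 probe were averaged as log2(Cy5/Cy3), control spots were left out, and no further normalisation was made. A group-means model was fitted with limma 3.58.1 (R 4.3.3) to 20 arrays, with 16 residual and 3.3 prior degrees of freedom, and adjusted over 35040 probes. All adjusted p-values of differences are limma's. The fit was tested on simulated data. Correlations used values centred on the group mean and 100000 permutations within groups (scipy 1.17.1). Slide layout was read from the headers: 1 slide held only strain arrays, 1 only hybrids, and 3 all groups.

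Named were all probes of the 10 genes and, from each other gene list, every gene called in a comparison and otherwise the 3 with the smallest F-test p. The genes with profiles most like Hsd3b1, Star and Cyp11a1 were the 5 with the highest r over 20 arrays. Not every gene that the rule names is reported here. The genes and lists were chosen with earlier results of these data known. Alternatives tried were normexp background correction (offsets 50 and 16) with loess, no background subtraction, the deposited ratios, scaling between arrays, no filter and a stricter one, slide or array letter as a block, only the arrays compared, and each array left out. The number of arrays limits the precision.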

Additional observations from a re-analysis of the deposited data

Results flagged for a closer look

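Of 52 sets of 5 arrays examined (13 probes in 4 groups), 3 held an array that stood apart from the other 4 by Dixon's criterion, where chance gives about 1 in 20. Hsd3b6 was 2.33 on (129S1xB6)F1 array M6, against 0.01 to 0.23 on the other 4 arrays of that hybrid. Cyp11a1 probe 1 was 2.88 on 129S1/SvImJ array A3, against 2.05 to 2.26 on the others of the strain. Cyp21a1 was -0.16 on (129S1xB6)F1 array L4, against 0.08 to 0.18 on the others. Hsd3b1 and Star had no such array in any group.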

How the results depend on the processing

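Counts are of the 13 probes. C57BL/6J minus 129S1/SvImJ gave 2 calls, and 1 under normexp at either offset, under scaling between arrays and with the array letter as a random block, with 1 to 2 when single arrays were left out. The mean of hybrids minus C57BL/6J gave 0, and 1 with the deposited ratios, the stricter filter, slide as a block or only the arrays compared (0 to 1 leaving out single arrays). The mean of hybrids minus 129S1/SvImJ gave 0, 2 without background subtraction and 1 under scaling (0 to 1 leaving out single arrays). The F test gave 1, and 0 under normexp at either offset. Of the single hybrids, (B6x129S1)F1 minus C57BL/6J gave 1 with slide as a block or only the arrays compared, (B6x129S1)F1 minus 129S1/SvImJ gave 1 without background subtraction, and (129S1xB6)F1 minus 129S1/SvImJ gave 0 to 1 leaving out single arrays, the 1 without A4. The causes were not tested, beyond fewer probes or arrays where the setting itself takes them away.

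No called difference of the 13 probes changed sign under the alternatives run. Over all probes the strain comparison called 1915, and 1224 with the letter block; the F test called 1249, and 722 with that block. With the hybrids, 668 probes were called against C57BL/6J (445 with slide as a block, 355 with the letter block, 365 without slide 5) and 540 against 129S1/SvImJ (305, 341 and 290 under the same settings, and 348 without A3). Against the mid-parent value 84 were called, and 19 to 54 under the same settings, without background subtraction, under scaling, or without M6 or C4. Leaving out slide 5 was chosen after seeing the data. Levels over the pool moved most without background subtraction. No paired analysis was possible because the labels give no replicate numbers shared between groups; the numbers used here follow accession order, and the slide, which held 1 array of each group on 3 slides, was used as a block instead. Low signal leaves a ratio more open to background subtraction, and processed Cy5 signals ran from 192 to 1385 for Star and from 217 to 486 for Cyp21a1.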

Other observations

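Across the 20 arrays, genes other than the steroidogenic and adrenal genes followed here were ranked by likeness to Hsd3b1, Star and Cyp11a1. The values are descriptions of arrays that share genotype and pool. The profiles most like that of Hsd3b1 were Sumf2 (r = 0.91), Hddc3 (0.90), Rgs17 (0.89), Rps3a (0.89) and Pik3c2a (0.89). With group means removed, their r was 0.71, 0.78, 0.58, 0.64 and 0.65 in that order. For Star the closest was Plcb4 (0.87), followed by Mll3 (0.79), and for Cyp11a1 it was Cd244 (0.78). With group means removed, these were 0.74, 0.69 and 0.80.

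Germ cell markers were above C57BL/6J in the hybrids for 8 of 8 genes, with a median of 0.53 and 7 under 0.05 before adjustment, though 0 were called by limma. Over all 35040 probes 48.6% were below 0 and 4073 were under 0.05 before adjustment in that comparison. Ddx4, a germ cell RNA helicase, was 1.31 above 129S1/SvImJ in the hybrids (limma adjusted p = 0.0232). Their summed Cy5 signal was 37.5 to 62.2 array medians in (B6x129S1)F1 and 34.3 to 65.0 in (129S1xB6)F1, against 17.2 to 29.0 in C57BL/6J and 21.8 to 35.5 in 129S1/SvImJ. Nnt, in which C57BL/6J is known to carry a deletion, was -0.72 in C57BL/6J minus 129S1/SvImJ (limma adjusted p = 0.0011), the direction of the strain labels. The mean of the hybrids lay nearer to C57BL/6J, at 0.15 from C57BL/6J, not called by limma, and -0.57 from 129S1/SvImJ, called.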
